A study of Mus musculus with 6 samples.

Results

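The macrophages of the mouse sciatic nerve described here were the 143 cells that carry this name in the authors' deposited annotation, of 364 cells in all (39.3%). They held 582071 of the 1155624 unique molecular identifiers (UMIs, each the count of 1 captured transcript), or 50.4%. The name came from the authors' own grouping of these cells by expression, so no test of macrophages against the other cells is given. Cells came from sciatic nerves of C57BL6/J mice aged 23 weeks and fed either a standard diet, labelled SD, or a high fat diet, labelled HFD. The mice were perfused, the nerves were digested with trypsin and collagenase, and cells were pulled out with anti-O4 magnetic beads. O4 is a sulphated lipid on the surface of myelinating glia. Macrophages are not the population that this selection targets, and the labels give Schwann cells as the cell type of each sample. Cells were present for 3 SD libraries and 2 HFD libraries, while HFD replicate 3 was not analysed here. The sex of the mice, the length of the diet and whether nerves of several animals were pooled were not stated in the sources used here. Nothing in the labels ties each sample to its own animal, so a p-value here reflects only how these libraries vary, and that variation may be technical.

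Peripheral nerve holds resident macrophages among its fibres, in the endoneurium, and in its outer sheath, the epineurium. Epineurial and perivascular macrophages are known for the mannose receptor Mrc1, Clec10a and Retnla, while endoneurial ones share Cx3cr1 and Trem2 with microglia, the macrophages of the brain. Blood monocytes, which reach the nerve through the chemokine receptor Ccr2, are a further source. All of them can present peptides to T cells on class II molecules, which are loaded with the help of the chaperone Cd74.

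The 3 class II genes of these cells with the most UMIs, H2-Aa, H2-Ab1 and H2-Eb1, are switched on together through shared promoter boxes, of which the Y box is bound by the factor NF-Y. The 2 promoters below are shown because these genes varied together from cell to cell in the macrophages, as given later. Each runs 5′ to 3′ on the strand of its gene and ends just inside the transcribed part, and the capitals mark the letters CTGATTGG, which contain the core of the Y box. H2-Aa is at chr17:34287774-34288073 on the minus strand, with the letters starting 51 bases before the gene start, and H2-Eb1 is at chr17:34305617-34305916 on the plus strand, with the letters starting 62 bases before it. Both sequences are RefSeq's, build GRCm38.p6.
H2-Aa: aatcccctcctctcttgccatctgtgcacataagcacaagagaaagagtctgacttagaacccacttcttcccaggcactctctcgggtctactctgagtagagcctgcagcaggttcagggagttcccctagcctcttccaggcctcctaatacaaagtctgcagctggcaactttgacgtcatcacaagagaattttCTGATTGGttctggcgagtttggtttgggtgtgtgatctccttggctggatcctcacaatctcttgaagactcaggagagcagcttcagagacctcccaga
H2-Eb1: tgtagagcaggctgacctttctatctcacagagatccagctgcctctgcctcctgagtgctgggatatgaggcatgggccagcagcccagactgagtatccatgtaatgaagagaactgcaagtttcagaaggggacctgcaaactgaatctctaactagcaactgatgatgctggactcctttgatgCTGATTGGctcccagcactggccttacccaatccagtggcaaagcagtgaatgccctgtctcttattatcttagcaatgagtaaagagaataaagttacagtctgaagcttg
The same 8 letters, searched on both strands, were present in 1346 of 32851 mouse promoters of this length (4.10%). The full 8 letters were absent from the windows of H2-DMa and H2-DMb1, whose products load peptides onto class II molecules. The H2-DMb1 window holds TGATTGG, which lacks only the first letter, and shorter forms were not counted. A match of letters is a description and not a binding site.

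Macrophages made up 36.2% of the 80 cells in SD replicate 1 (exact 95% binomial interval 25.8 to 47.8), 29.6% of 81 in SD replicate 2 (20.0 to 40.8) and 20% of 40 in SD replicate 3 (9.05 to 35.6). On HFD they made up 70.2% of 57 cells in replicate 1 (56.6 to 81.6) and 39.6% of 106 in replicate 2 (30.3 to 49.6). Both HFD libraries lay above the 3 SD libraries. The mean share was 28.6% ± 8.17 on SD (SD of libraries, n = 3) and 54.9% ± 21.6 on HFD (n = 2), a difference of 26.3 percentage points. It did not pass a two-sided exact permutation test (p = 0.2, Benjamini-Hochberg adjusted 0.4 over 2 tests). With 10 splits and the smaller tail doubled, 0.2 is the smallest p that this permutation test can give, so it could not pass. The library names carry a project number, whose meaning is not stated, and the 2 numbers divide the libraries into 2 sets. Within set 1 (SD replicates 1 and 2, HFD replicate 1) the difference was 37.2 points, and within set 2 (SD replicate 3, HFD replicate 2) it was 19.6.

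Depth per cell divided the macrophages into a deep and a shallow set. UMIs per macrophage ranged from 122 to 13999 with a median of 1064, and only 7 cells lay between 1500 and 4000. The 63 cells with at least 2000 UMIs, called deep here, had a median of 8796 UMIs and 2290 genes and held 91.4% of all macrophage UMIs. The 80 shallow cells had a median of 580.5 UMIs and 345.5 genes. This boundary was chosen after the depths were seen, and the cells nearest to it had 1997 and 2017 UMIs. Deep cells numbered 16 of 29 macrophages in SD replicate 1, 7 of 24 in SD replicate 2, 1 of 8 in SD replicate 3, 24 of 40 in HFD replicate 1 and 15 of 42 in HFD replicate 2. In SD replicate 3, that 1 deep cell of 7121 UMIs held 85.9% of the library's macrophage UMIs, so its levels are mostly those of 1 cell, and it is left out of the means below. The median macrophage had 3556, 595 and 147.5 UMIs in SD replicates 1, 2 and 3 and 6941 and 818.5 in HFD replicates 1 and 2. The groups overlapped, and the means of 1433 ± 1852 (n = 3) and 3880 ± 4329 (n = 2) did not pass a two-sided exact permutation test (p = 0.4, adjusted 0.4). Without HFD replicate 1 the difference turned negative, at -614. Mitochondrial transcripts were a median 3.01% of UMIs in deep and 2.14% in shallow cells, with 4.94% the highest.

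**Figure D1:**
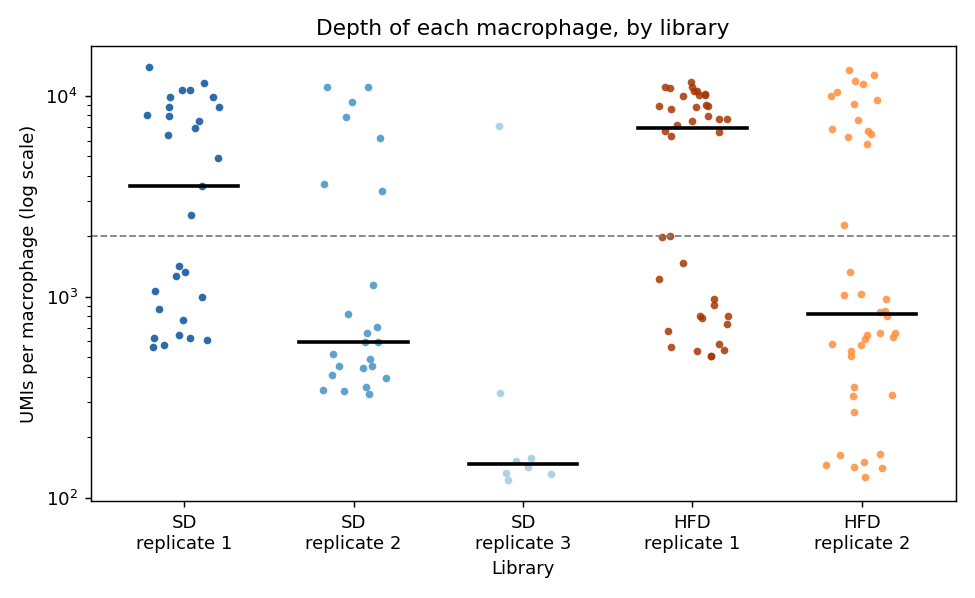
UMIs per macrophage on a log scale for the 5 libraries; each point is 1 cell, bars are library medians and the dashed line is the boundary of 2000 UMIs. Cells fall above or below the line with few near it, and SD replicate 3 has 1 cell above it.

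Barcodes of similar sequence were more frequent within libraries than between them. No barcode occurred in more than 1 library. Within a library, 27 of 2351 macrophage pairs had barcodes within 3 of 16 bases of each other, against 1 of 7802 pairs from different libraries. These near pairs formed 12 families of 32 barcodes, 27 of them shallow, and counting each family once left 123 cells. Whether such barcodes are cells of their own was not tested.

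Nearly all of these cells had a UMI of at least 1 defining marker, and fewer had most of them. At least 1 of the 7 markers C1qa, C1qb, Apoe, Cd74, Lyz2, Trem2 and Cd14 had a UMI in 139 of 143 cells, and all 7 had one in 43 cells, of which 42 were deep. At least 4 of the 7 had a UMI in 112 cells, 51 of them shallow. Of the 28 cells under 500 UMIs, 10 had at least 4. The 4 cells with none of the 7 held 141, 320, 356 and 621 UMIs and no UMI of the leukocyte gene Ptprc, while the first and the last had 1 UMI of Tyrobp each and the last 1 of Fcer1g. Levels below are CPM, the UMIs of a gene scaled to 1000000 macrophage UMIs of the library. Each transcript is counted once near its 3′ end, so this level does not scale with gene length. A level of 0 allows up to 20.9, 48.7 and 362 CPM in SD replicates 1, 2 and 3 and up to 13.4 and 20.7 CPM in HFD replicates 1 and 2, by the limit of 3 counts. Lyz2, the macrophage lysozyme, was at 10057, 8485 and 4704 CPM in SD replicates 1, 2 and 3 and 7596 and 7215 CPM in HFD replicates 1 and 2. C1qb, a chain of the complement starter C1q, was at 3889, 3018 and 2774 CPM on SD and 2951 and 2118 CPM on HFD. Lyz2 was lowest in SD replicate 3 and C1qb in HFD replicate 2, and the diets overlapped for both. The receptors Trem2 and Cd14 had lower levels. Trem2, a lipid-sensing receptor, was at 467, 324 and 965 CPM on SD and 201 and 269 CPM on HFD. Cd14, the co-receptor for bacterial lipopolysaccharide, was at 578, 1785 and 121 CPM on SD and 697 and 828 CPM on HFD. SD replicate 3 was the highest for Trem2 and the lowest for Cd14. The 3 SD values of Trem2 lay above its 2 HFD values, while those of Cd14 overlapped.

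Detection was compared at an equal depth, as the share of cells expected to show a UMI when each is taken to 1000 UMIs. This used the 75 macrophages with that depth (median 7831 UMIs), beside 57 cells of a type that should lack macrophage genes, those the authors named SCP (median 4374 UMIs). The share was 95% for Apoe against 8.41% in SCP, 95% for Cd74 against 3.12%, and 88.4% for C1qa against 0.667%. The share for Trem2 was 20.9% and that in SCP 0%, which in 57 cells allows up to 5.26% of cells with a UMI at this depth, here and for each 0% below, and sets no limit on cells that express the gene. Of these 4 markers Apoe had the highest share in SCP, and shares below stand beside their SCP value in this order. Counting intervals and floors here cover counting error only.

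All 20 genes of the macrophage identity list had UMIs, summing to between 55214 and 77313 CPM across the 5 libraries. Csf1r, the receptor for the growth factor that keeps macrophages alive, was at 822, 763 and 1327 CPM on SD and 1019 and 1062 CPM on HFD. Adgre1, which encodes the F4/80 antigen, was at 495, 454 and 724 CPM on SD and 590.1 and 421 CPM on HFD. The signalling adaptor Tyrobp, partner of Trem2, reached 1981 ± 229 CPM (SD, n = 4 libraries without SD replicate 3, as in all means below).

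Markers of other cells were low. Of 8 Schwann markers, 6 had UMIs, 206 in 64 macrophages, summing to between 167 and 1930 CPM per library against 46936 CPM in SCP; Sox10 and S100b were at 0. The highest value was that of SD replicate 3. Fibroblast markers gave 11 UMIs (0 to 32.4 CPM), endothelial or mural markers 36, neutrophil markers 23 (0 to 69.0 CPM) and erythroid markers 5. All 5 mast cell and all 7 defining T, NK or B cell markers were at 0, which over all macrophages allows up to 5.15 CPM each. Of the wider list of 12 T, NK or B cell genes, 2 had UMIs in every library, the antibody chain gene Ighm (85 UMIs in 48 cells) and the B cell receptor gene Cd79b (24 in 16), summing to between 146 and 362 CPM. At least 5 UMIs of another cell type's defining markers occurred in 2, 1 and 2 macrophages on SD and in 8 and 6 on HFD, 19 in all.

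**Figure D2:**
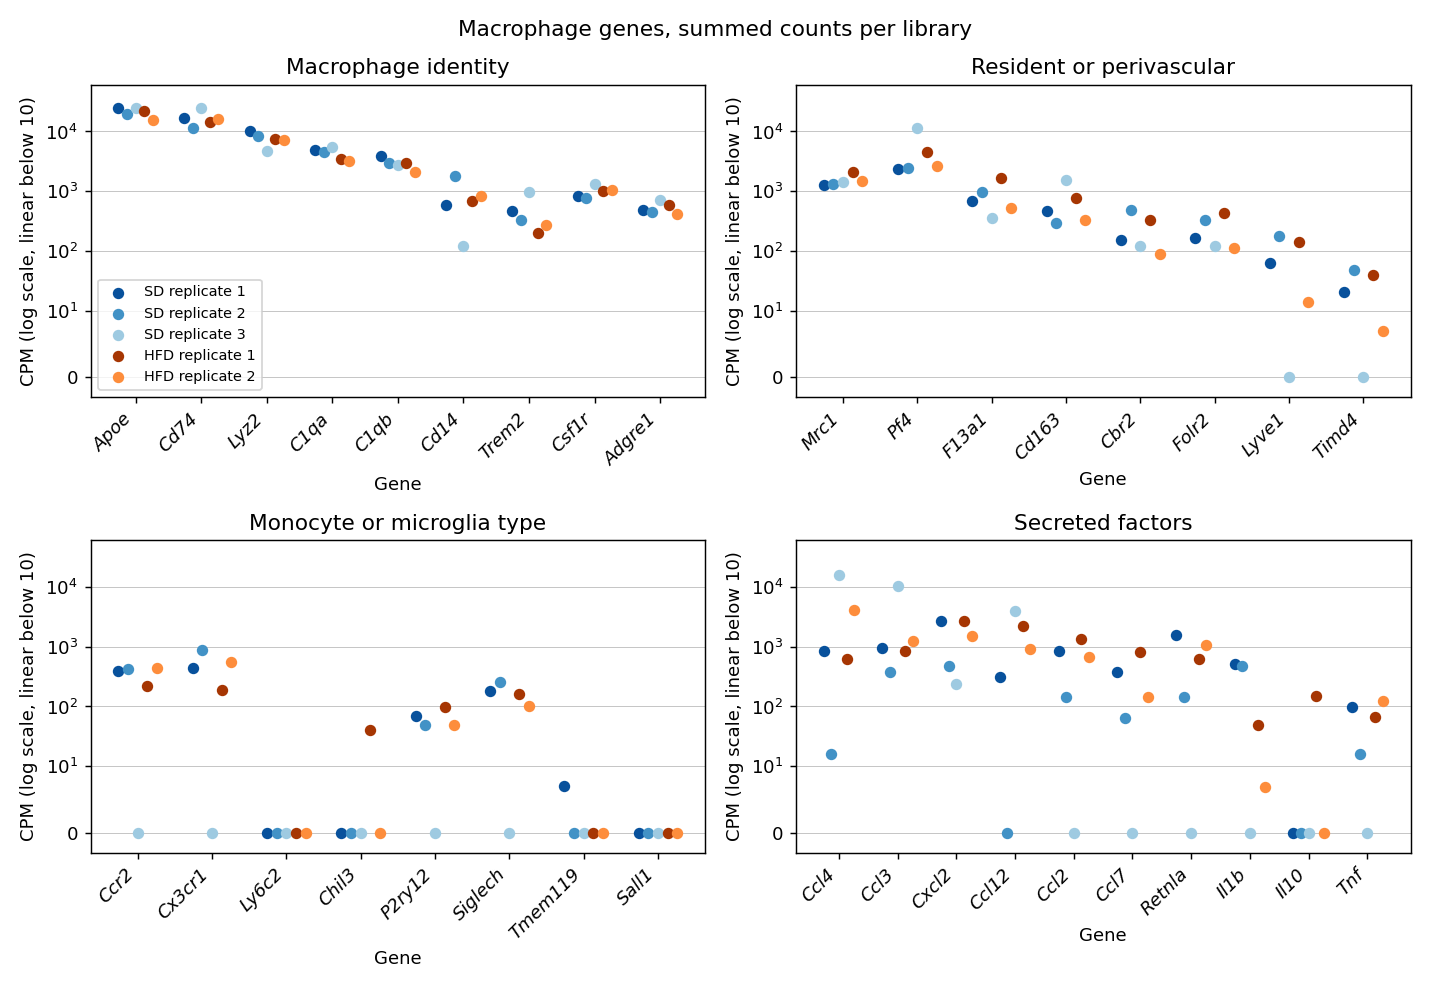
Levels of macrophage genes in 4 panels, as CPM of summed macrophage counts per library on a log axis that is linear below 10; each point is 1 library. Of the identity genes, Lyz2 (4704 to 10057 CPM) is near the same height in the 5 libraries, while Trem2 and Cd14 differ more between them. Ly6c2 and Sall1 lie at 0, and secreted factors such as Ccl4 are spread over the axis.

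Genes of resident macrophages were counted in full. All 20 genes of the resident perivascular or epineurial list had UMIs, 17 of them in over 10% of the macrophages, summing to between 11646 and 26294 CPM. Mrc1, the mannose receptor, was at 1255, 1330.4 and 1447 CPM in SD replicates 1, 2 and 3 and 2115 and 1511 CPM in HFD replicates 1 and 2, and its share of cells at equal depth was 64.8% (1.49% in SCP). Pf4, a chemokine made by resident macrophages, was at 2335, 2417 and 11338 CPM on SD and 4462 and 2600.4 CPM on HFD. For Mrc1 both HFD libraries lay above the 3 SD libraries, while Pf4 was highest in SD replicate 3 and the diets overlapped. F13a1, the coagulation factor XIII subunit, was at 697, 989.7 and 362 CPM on SD and 1636 and 524 CPM on HFD. Cd163, the scavenger receptor for haemoglobin, was at 474, 292 and 1568 CPM on SD and 778 and 331 CPM on HFD. Mgl2, a galactose-binding lectin, was at 718, 308 and 2412 CPM on SD and 921 and 814 CPM on HFD. SD replicate 3 was highest for Cd163 and Mgl2 and lowest for F13a1, and the diets overlapped for each of the 3.

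Selenop and Maf also belong to this list and were also counted in SCP. Selenop, a secreted selenium carrier, had an equal-depth share of 74.9% against 31.6% in SCP, and the transcription factor Maf 65.1% against 64.1%.

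The markers of long-lived resident subsets were sparser. Folr2, a folate receptor, had UMIs in 31 of 63 deep cells and 15 of 80 shallow cells (258 ± 146 CPM; 17.9% against 0.382% in SCP at equal depth). Lyve1, a hyaluronan receptor of vessel-associated macrophages, had UMIs in 18 deep and 7 shallow cells (99.5 ± 74.9 CPM; 9.41% against 0.416%). Timd4, a receptor for phosphatidylserine on dying cells, had 16 UMIs in 11 cells. Among the deep cells, 6 of the 7 with Timd4 also had Lyve1, and 14 of the 18 with Lyve1 also had Folr2. The complement receptor gene Vsig4 had 2 UMIs in all.

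Retnla and Clec10a, known from epineurial macrophages, differed in how many cells held them. Retnla, a small secreted protein of the resistin family, was at 1554, 146 and 0 CPM on SD and 612 and 1055 CPM on HFD, from 26 cells, and 1 HFD replicate 2 cell of 9501 UMIs held 145 of its 522 UMIs. Clec10a, a lectin, was at 167, 32.4 and 121 CPM on SD and 299.5 and 89.7 CPM on HFD, from 41 cells. The chemokine Ccl8 was at 97.6, 0 and 0 CPM on SD and 169.9 and 297 CPM on HFD, from only 3 deep and 12 shallow cells. Retnla was at 0 in SD replicate 3 and highest in SD replicate 1, so the diets overlapped, as they did for Clec10a. For Ccl8 both HFD libraries lay above the SD libraries.

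Genes shared with microglia were present, with few or no UMIs of those most particular to microglia. Of 16 genes, 14 had UMIs. Cx3cr1, the fractalkine receptor, was at 439, 876 and 0 CPM in SD replicates 1, 2 and 3 and 192 and 552 CPM in HFD replicates 1 and 2, at an equal-depth share of 23.9% (0.297% in SCP). It was highest in SD replicate 2 and at 0 in SD replicate 3, and the diets overlapped. Cst3 (cystatin C) reached 4789 ± 307 CPM, the complement receptor C3ar1 332 ± 63.8 CPM and the lectin Siglech 176 ± 64.6 CPM. P2ry12, the ADP receptor of microglia, reached only 66.3 ± 23.6 CPM, from 29 cells. Tmem119 had 1 UMI, and the microglial transcription factor Sall1 and the fructose transporter Slc2a5 had none, which allows up to 5.15 CPM and up to 2.10% of cells with a UMI, though not of cells that express the gene.

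Monocyte genes were counted in part, and some of those that mark classical and non-classical blood monocytes were at 0. Of 20 genes, 15 had UMIs, summing to between 724 and 1641 CPM. Ccr2, the receptor that brings monocytes into tissue, was at 390.3, 422 and 0 CPM in SD replicates 1, 2 and 3 and 219 and 441 CPM in HFD replicates 1 and 2. It had UMIs in 29 of 63 deep and 5 of 80 shallow cells, and at equal depth in 19.8% of macrophages (0% in SCP). SD replicate 3 had no UMI and HFD replicate 1 the lowest other level, and the diets overlapped. Ly6c2, the surface marker of classical monocytes, was at 0, as were Ace and Treml4, which mark the non-classical form. Nr4a1, Spn and Ear2 of the same list had UMIs, at 138 ± 78.2 CPM, 11.6 ± 14.3 CPM and 1.12 ± 2.24 CPM. S100a6 and S100a4 were at 505 ± 193 CPM and 273 ± 105 CPM, but S100a6 is not specific, with an equal-depth share of 19.4% in macrophages and 76% in SCP. Chil3, Plac8 and Vcan had 9, 1 and 2 UMIs.

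All 9 Chil3 UMIs came from 1 deep cell of HFD replicate 1, which stood apart in several ways. With 10557 UMIs it had no C1qa, C1qb or C1qc, 212 UMIs of Lyz2, 14 of Ccr2, 12 of Csf1r, 50 of S100a4, 65 of S100a6 and 19 of Fn1, and 0 of Ly6c2. A further cell, of HFD replicate 2 with 12688 UMIs, had 1 UMI of C1qa, 12 of Ccr2, 52 of the filament gene Vim and 37 of the lipase Lpl. The third deep cell with at most 1 C1q UMI, of HFD replicate 1 with 6608 UMIs, was of another kind. Ribosomal protein genes took 63.3% of its UMIs, it had 833 genes, no mitochondrial UMI and 0 UMIs of Apoe, Malat1 and Csf1r. These 3 cells, and those singled out below, were chosen after their values were seen.

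Dendritic cell genes were sparse. Of 14, 10 had UMIs, summing to between 362 and 665 CPM, and most came from genes that macrophages share, such as Irf8 (174 ± 70.7 CPM) and Siglech. Flt3 and Zbtb46, which define conventional dendritic cells, had 1 UMI each, Clec9a had 2, and Xcr1, Itgax and Ccr7 had 0. Cd209a, a lectin of monocyte-derived cells, had UMIs in 23 cells.

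Class II antigen presentation was among the highest programs. Of 14 genes, 13 had UMIs, summing to between 26576 and 67784 CPM, and H2-DMb2 was at 0. H2-Aa, whose promoter is printed above, was at 6802, 4527 and 14474 CPM in SD replicates 1, 2 and 3 and 6782 and 6773 CPM in HFD replicates 1 and 2. H2-Eb1, a further class II beta chain gene, was at 7994, 4527 and 12061 CPM on SD and 6885 and 7698 CPM on HFD. H2-Ab1, the partner of H2-Aa, was at 7088, 4364 and 13147 CPM on SD and 6509 and 6684 CPM on HFD. Their equal-depth shares were 93%, 92.6% and 90% (0.948%, 2.27% and 3.06% in SCP). SD replicate 3 was highest and SD replicate 2 lowest for each of the 3, and the diets overlapped. Ciita, the coactivator that turns these genes on, was counted in 26 cells at 70.8 ± 35.1 CPM. Of the costimulators, Cd86 was at 438 ± 285 CPM, while Cd40 and Cd80 had 8 and 9 UMIs. The peptide loaders H2-DMa and H2-DMb1 were at 468 ± 75 CPM and 394 ± 123 CPM.

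Complement and its receptors were counted in all libraries. C1qa was at 4976, 4494 and 5428 CPM on SD and 3429 and 3228 CPM on HFD and C1qc at 3213, 2207 and 3618 CPM on SD and 2454 and 1828 CPM on HFD. The C5a receptor C5ar1 was at 484 ± 151 CPM and the CR3 chain Itgam at 72.8 ± 8.36 CPM. C3, the central component of the cascade, had 1 UMI, and C2 had 0.

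Phagocytic and pattern receptors had UMIs for 22 of 24 genes with a row, summing to between 4969 and 7116 CPM, with Tyro3 and Marco at 0. Cd36, a receptor for oxidised lipids, was at 889 ± 299 CPM, the antibody receptors Fcgr3, Fcgr2b and Fcgr1 at 381 ± 52 CPM, 223 ± 98.7 CPM and 113 ± 29.8 CPM, and the scavenger receptor Stab1 at 417 ± 111 CPM. Of the 3 TAM receptors, which take up dying cells and myelin debris, Axl was at 125, 146 and 0 CPM on SD and 112 and 159 CPM on HFD. Mertk was at 34.8, 129.8 and 121 CPM on SD and 291 and 69 CPM on HFD, with 32 of its 89 UMIs in 1 HFD replicate 1 cell of 11721 UMIs, and its equal-depth share of 9.03% did not exceed the 10% in SCP. Axl had a share of 11.3% against 0%. Toll-like receptors were low, with Tlr7, Tlr2 and Tlr4 at 85.5 ± 43 CPM, 71 ± 8.92 CPM and 52 ± 24.6 CPM.

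Cytokine, growth factor and purine receptors had UMIs for all 34 genes, within 4203 and 5497 CPM in sum. After Csf1r, Cx3cr1 and Ccr2, the highest were Ifngr1, for interferon gamma, at 261 ± 33.8 CPM, Tgfbr2, for TGF-beta, at 237 ± 60.1 CPM, and Nrp1, a co-receptor for VEGF and semaphorins, at 177 ± 45.8 CPM. Tgfbr2 was also counted in SCP at equal depth (21.3% against 22.5%). The IL-10 receptor chains Il10ra and Il10rb were at 114 ± 27.3 CPM and 157 ± 51.4 CPM. Tnfrsf1a and Tnfrsf1b, for TNF, were at 78.6 ± 49.7 CPM and 38.8 ± 29.4 CPM. The IL-1 receptor Il1r1 had 1 UMI. Among purine receptors, P2ry6, P2rx4 and P2rx7 were at 116 ± 29.4 CPM, 127 ± 56.9 CPM and 108 ± 37.9 CPM, of which P2rx7 was detected more often in SCP at equal depth (22.7% against 7.73%).

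Lipid-handling genes were led by Apoe, at 24769.7, 19226 and 24846 CPM in SD replicates 1, 2 and 3 and 22398 and 15464 CPM in HFD replicates 1 and 2. All but Itgax of the 20 genes of the lipid-associated list had UMIs, at unlike levels. Gpnmb had 14 UMIs in 5 cells, Fabp5 31 in 8, and Spp1 36 in 2. Higher members were Lgals1 (859 ± 148 CPM), Cd63 (546 ± 134 CPM), Lgals3 (286 ± 222 CPM), Lpl (245 ± 187 CPM), Plin2 (136 ± 38.2 CPM) and Cd9 (100 ± 24.6 CPM). The list summed to between 20575 and 30153 CPM per library, against 6083 CPM in SCP. One HFD replicate 2 cell of 11507 UMIs held 35 of the 36 UMIs of Spp1 (osteopontin). One SD replicate 1 cell of 13999 UMIs, the deepest, held 1419 UMIs of Apoe, 10.1% of its total, with 24 of Trem2, 62 of the protease Ctsd, 8 of Gpnmb and 11 of Fabp5, and class II genes took 0.886% of it.

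Secreted cytokines and chemokines summed to between 5419 CPM in SD replicate 2 and 42576 in SD replicate 3, the widest ratio of the 16 macrophage lists, and 24 of 26 genes had UMIs, Il12b and Csf1 being at 0. Ccl4, an inflammatory chemokine, was at 850.3, 16.2 and 15679.7 CPM in SD replicates 1, 2 and 3 and 617 and 4179.9 CPM in HFD replicates 1 and 2. Ccl3, its close relative, was at 948, 373 and 10252 CPM on SD and 832 and 1235 CPM on HFD. Cxcl2, which draws in neutrophils, was at 2676, 471 and 241 CPM on SD and 2736 and 1497 CPM on HFD. None of the 3 separated the diets, and the highest Ccl3 and Ccl4 levels are those of SD replicate 3, with its 1 deep cell. Ccl12, a ligand of Ccr2, was at 307, 0 and 3980.2 CPM on SD and 2226 and 931 CPM on HFD. Ccl2, the main ligand of Ccr2, was at 836, 146 and 0 CPM on SD and 1328 and 669 CPM on HFD. Ccl12 was highest in SD replicate 3 and at 0 in SD replicate 2, so the diets overlapped, and so they did for Ccl2.

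Much of this came from few cells. One HFD replicate 2 cell of 11811 UMIs held 303 of the 997 UMIs of Ccl4 and 79 of Ccl3. One HFD replicate 1 cell of 8990 UMIs held 205 of the 710 UMIs of Ccl12, 48 of Ccl7 and all 7 of Il1a. All 33 UMIs of the anti-inflammatory cytokine Il10 were in 1 HFD replicate 1 cell of 10078 UMIs, which also had 49 of Mrc1. Tnf had 48 UMIs in 18 cells, Il6 had 1 UMI, and the interleukin 1 antagonist Il1rn had 7. In the deep cells Ccl3 and Ccl4 were counted together in 21 cells and alone in 12 and 8, and Ccl2 and Ccl7 together in 17 and alone in 17 and 4.

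Growth factors for nerve and vessels were low or shared with SCP. Gas6, the TAM receptor ligand, was at 217 ± 85 CPM, Igf1 at 131 ± 55.1 CPM, Tgfb1 at 138 ± 33.6 CPM and Pdgfb at 71.4 ± 35.1 CPM, while Vegfa was at 0. Grn (progranulin) was at 384 ± 75.7 CPM. Psap and Timp2 were counted in SCP as well (50.6% against 30.5% for Psap and 30.2% against 31.2% for Timp2 at equal depth). The gelatinase Mmp9 was at 69.7, 0 and 362 CPM on SD and 174 and 117 CPM on HFD.

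Immediate early genes, which respond within minutes to stimulation, were all counted, 18 of 18, at 35203 to 47700 CPM in sum per library against 10034 in SCP. Fos was at 5749.9, 6847 and 9408 CPM on SD and 5499 and 6049 CPM on HFD and Jun at 3805, 4397 and 7357 CPM on SD and 4564 and 5456 CPM on HFD. The stress-induced Atf3 had an equal-depth share of 56.8% against 3.26% in SCP. Interferon-stimulated genes were led by Ifitm3 (974 ± 153 CPM) and Ifi27l2a (697 ± 303 CPM), whereas Isg15 had 11 UMIs and Ifit1 and Rsad2 had 0. Cell-cycle genes were near 0, with 9 UMIs of Mki67 in 4 cells and 4 of Top2a in 3.

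Variation between macrophages was measured at an equal 1000 UMIs as the variance over the mean of each gene, in the 75 cells of that depth and 4826 genes (median 1.06). The most variable was the gene model Gm42418 (17.5), which overlaps ribosomal RNA sequence. It was followed by Apoe (13.6), Retnla (13.2), Ccl4 (12.8), Ccl12 (9.88), the nuclear RNA Malat1 (8.21) and Cxcl2 (7.72). Errfi1 (6.43), Tmsb10 (6.23), Cd74 (6.15), Lgals3 (5.45) and Rps29 (5.41) completed the first 12. Secreted proteins, chemokines and the class II chaperone were thus among the genes that differed most from cell to cell.

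The first axis of variation followed depth and RNA composition. The first principal component held 11.3% of the variance and its Spearman correlation with the log of UMIs per cell was 0.614 (75 cells from 5 libraries; 0.379 in the 63 deep cells). At 1 end stood Malat1, Fos, Egr1, Zfp36, Dusp1 and Jun, and at the other the ribosomal protein genes Rpl22, Rpl32, Rpl9, Rpl39, Rps27 and Rpl36a. The second component held 3.98%. Cd74, H2-Eb1, H2-Ab1 and H2-Aa led 1 end, with Rps15a and Rpl38, and Cltc, Ccl24, Clec10a, Ctsb, Ubn1 and Cd209d led the other. The 3 cells furthest toward the latter end had 1064, 1221 and 4917 UMIs. Over the deep cells, Clec10a had Spearman correlations between -0.05 and 0.05 with the 4 class II genes.

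Class II was graded rather than present or absent in the deep cells. Cd74, H2-Aa, H2-Ab1 and H2-Eb1 together took between 0.0992% and 7.55% of a deep cell's UMIs, with a median of 3.82%. The library medians were 4.29% and 1.71% in SD replicates 1 and 2, 7.22% in the 1 deep cell of SD replicate 3, and 3.74% and 3.72% on HFD. The 6 pairs of these genes had Spearman correlations of 0.86 to 0.88 over the 63 deep cells. Cells of 1 library share its processing and depth range, so these and the other correlations over cells are descriptions. The class II share correlated with that of Ccr2 at 0.41, with the same sign in all 4 libraries with at least 7 deep cells. In the 52 shallow cells of at least 500 UMIs this correlation was only 0.07. With the perivascular genes Mrc1, Lyve1, Folr2, Cd163 and F13a1 together, the class II share correlated at -0.23 in the deep cells, negative in 3 of the 4. In those shallow cells the value was -0.27.

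Perivascular genes took 0% to 1.59% of a deep cell's UMIs, with a median of 0.328%. The medians were 0.166% and 0.274% in SD replicates 1 and 2, 0.351% in the 1 cell of SD replicate 3, 0.467% in HFD replicate 1 and 0.181% in HFD replicate 2. HFD replicate 1 was highest and HFD replicate 2 lay between the SD libraries. Mrc1 correlated with F13a1 at 0.64 and with Cd163 at 0.49, each positive in 4 of 4 libraries. In the deep cells, Ccr2 and Timd4 had no cell in common (29 and 7 cells), and Ccr2 and Lyve1 shared 5 cells of 29 and 18. Ccr2 and Cx3cr1 shared 19 cells of 29 and 46, with a Spearman correlation of 0.024. The perivascular share was also lower where the ribosomal share was higher, at -0.59 in the deep cells (4 of 4 libraries negative) and -0.58 in the 52 shallow cells of at least 500 UMIs, and the part of the ribosomal share in the relations above was not tested.

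Immediate early genes and 6 inducible chemokines (Ccl2, Ccl3, Ccl4, Ccl7, Ccl12, Cxcl2) varied together from cell to cell. Immediate early genes took 0% to 10.5% of a deep cell's UMIs (median 3.83%) and the chemokines 0% to 5.39% (median 0.299%), with a Spearman correlation of 0.53 that was positive in 4 of 4 libraries. The C1q genes and Apoe correlated at 0.48, positive in 3 of the 4. The immediate early share was lower where the ribosomal share was higher in the deep cells, at -0.33 (4 of 4 libraries).

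**Figure D3:**
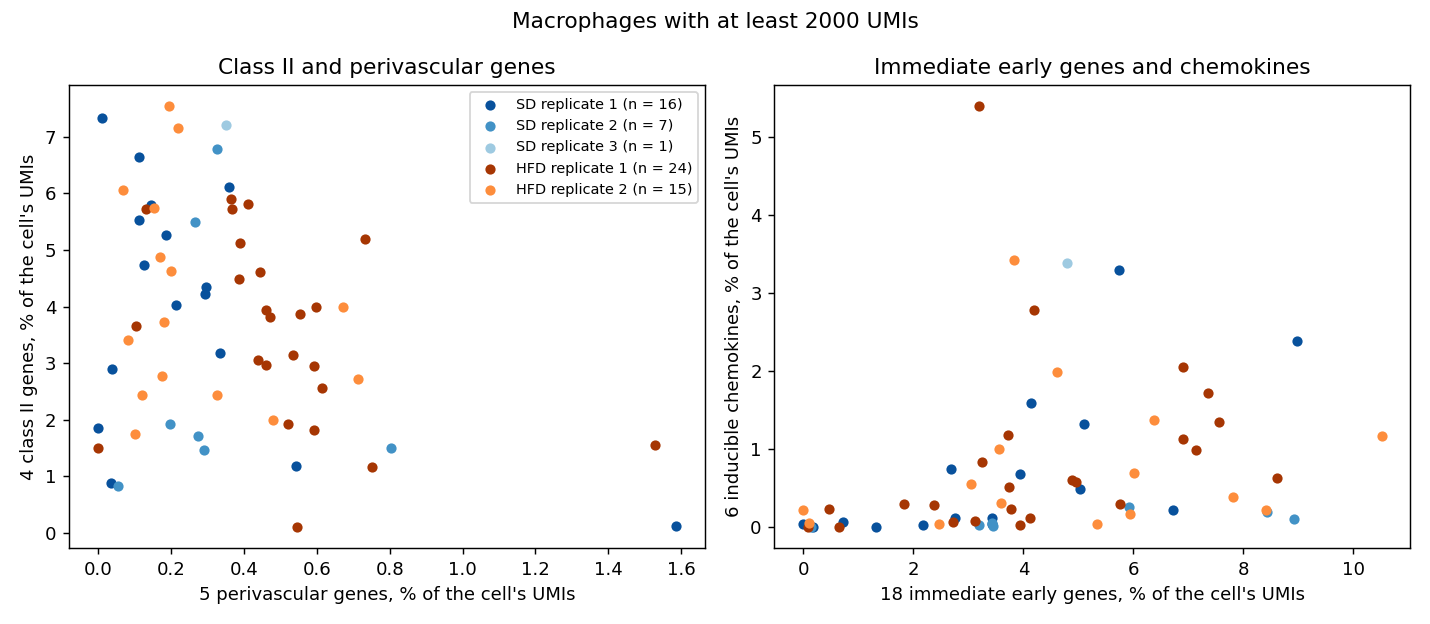
Shares of UMIs in each of the 63 deep macrophages, in percent; on the left 4 class II genes against 5 perivascular genes, on the right 6 inducible chemokines against 18 immediate early genes, with colours for libraries. Class II is spread over the range from 0.0992% to 7.55%, and the points on the right slope upward (Spearman 0.53).

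Deep and shallow macrophages of the same library were compared for 1289 genes with at least 60 UMIs, on the scale of log2(CPM + 50) and over the 4 libraries with at least 10 macrophages. The depth of a cell sets which genes are counted, so these are descriptions with no test. The median difference, deep minus shallow, was 0.415. Deep cells were higher in 4 of 4 libraries for 292 genes (22.7%) and lower in 4 of 4 for 103 (7.99%). Values after ± are standard deviations over the 4 libraries, and the libraries stand in the order SD replicates 1 and 2, HFD replicates 1 and 2.

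Immediate early genes stood out, with 16 of 18 higher in all 4 libraries and a median of 1.11. Jun was at 3913, 4850.4, 4717 and 5844 CPM in the deep cells and 2551, 1766, 2204 and 1989 CPM in the shallow cells, a difference of 1.16 ± 0.42. Every deep value lay above every shallow value. Ier2 and Btg2 had the highest differences of the list, 2.06 ± 1.12 and 1.92 ± 0.92. All 4 main class II genes were higher in deep cells of each library (median 0.87). H2-Aa was at 7047, 4679, 6955 and 7109 CPM in the deep cells and 3958, 3642, 4115 and 3773 CPM in the shallow cells, a difference of 0.71 ± 0.24. The 2 sets of H2-Aa values again did not overlap.

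For genes whose shallow values rest on few counts, the difference is plotted or printed but not read. Deep cells hold 91.4% of the UMIs, so such genes reached the minimum of 60 UMIs through the deep cells, and 3 counts in the shallow cells of a library correspond to 206 to 331 CPM. All 93 UMIs of Fgfr2, a fibroblast growth factor receptor, were in deep cells, at 145 CPM, and the deep levels of Axl (149 CPM) and Igf1r (124 CPM) also lie under those values.

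Of 16 resident perivascular genes with enough UMIs, 2 were higher and 4 lower in deep cells of all 4 libraries, and the other 10 were neither (median -0.31). The 4 were Folr2 (-1.15 ± 0.72), Gas6 (-1.28 ± 0.82), Selenop (-0.39 ± 0.27) and Ccl24 (-1.75 ± 1.49), and the 2 were Mgl2 (0.88 ± 0.36) and Maf (0.47 ± 0.35). Folr2 averaged 229 CPM in deep and 529 CPM in shallow cells. Over all macrophages of these libraries, Folr2, Gas6 and Ccl24 averaged 258, 217 and 168 CPM. These levels come mostly from deep cells and lie within or under the 206 to 331 CPM of 3 shallow counts. The shallow mean of Folr2 lies above that range. The shallow values of Folr2, Gas6 and Ccl24 still rest on few counts, so their differences are not read. Mrc1, Lyve1, Folr2, Cd163 and F13a1 together took 0.254%, 0.327%, 0.511% and 0.258% of the UMIs of deep cells and 0.405%, 0.221%, 0.4996% and 0.171% of those of shallow cells, so deep cells were higher in 3 of 4 libraries. Ccl8 was lower in 3 of 4 libraries and at 0 in both sets of SD replicate 2, and averaged 24.5 CPM in deep and 1377 CPM in shallow cells. Retnla averaged 698 CPM in deep and 2769.7 CPM in shallow cells, but was higher in the deep cells of HFD replicate 2. Of 18 genes of lysosome and iron handling, 0 were higher and 3 lower in all 4 libraries (median -0.06). These were the protease Ctsb (-0.71 ± 0.39), the lysosomal membrane protein Lamp1 (-0.64 ± 0.35) and the ferritin light chain Ftl1 (-0.63 ± 0.75). C1q genes did not follow this split, with C1qb at 0.01 ± 0.64. Ribosomal protein genes were lower in 4 of 4 libraries for 31 of 81 and higher in 4 of 4 for 0 (median -0.31).

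**Figure D4:**
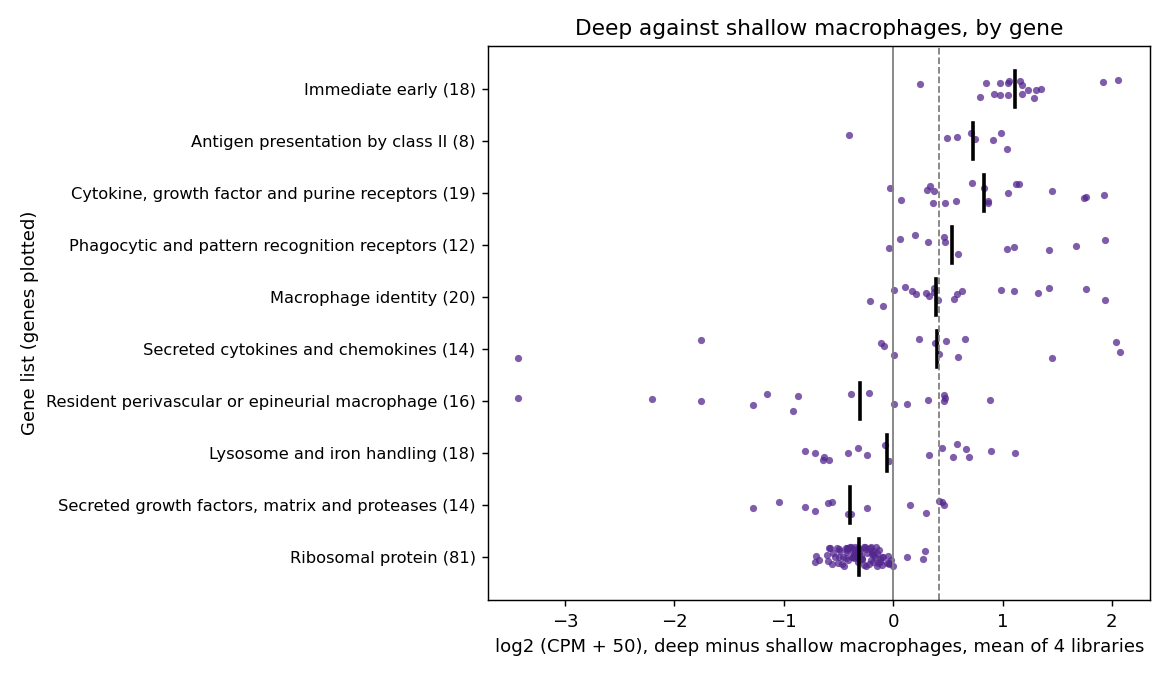
Difference between deep and shallow macrophages in log2(CPM + 50), mean of 4 libraries; each point is 1 gene, bars are list medians and the dashed line is the median of all 1289 genes (0.415). Of the lists shown, the immediate early genes have the highest median (1.11), and most ribosomal protein genes lie left of 0.

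Diet was compared with edgeR's quasi-likelihood test on counts summed over the macrophages of each library, for the 4 libraries with at least 10 of them (53 cells on SD, 82 on HFD). The comparison asks how a high fat diet changes gene expression in these nerve cells. Of 2108 genes tested, 1 passed after Benjamini-Hochberg adjustment (0.0474%), and 86 genes with higher and 42 with lower levels on HFD had an unadjusted p under 0.05. With 2 libraries a diet, 801 genes (38%) had groups that did not overlap, 418 higher (19.8%) and 383 lower on HFD (18.2%). CPM in this comparison are scaled by TMM over the genes tested and run higher than those above. Values after ± are standard errors of the log2 difference, HFD minus SD.

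The gene that passed was Il1b, the inflammatory cytokine interleukin 1 beta, and few cells carried it. It was at 649 and 562 CPM on SD and 57.6 and 8.13 CPM on HFD, so both HFD libraries lay below both SD libraries. The difference was -4.01 ± 0.55 (edgeR quasi-likelihood, adjusted p = 0.019). Its 116 macrophage UMIs lay in 15 cells, and at equal depth its share was 7.98% (0% in SCP). On SD, 6 of 29 macrophages in replicate 1 held 75 UMIs, 1 cell of 9381 UMIs in replicate 2 held 29, and none of the 8 macrophages of SD replicate 3 held any. On HFD, 7 of 40 macrophages in replicate 1 held 11 UMIs and 1 of 42 in replicate 2 held 1. The UMIs were thus fewer on HFD, but the number of macrophages with any was 7 on SD and 8 on HFD. Of the 8 on HFD, 5 were shallow. Of these, 3 in replicate 1, of 580, 565 and 543 UMIs, formed 1 barcode family and held 3, 2 and 2 Il1b UMIs. Whether these 3 are separate cells was not tested. Among deep cells the number with any was 6 of 23 on SD, with 103 UMIs, and 3 of 39 on HFD, with 3. With the deep cells alone the difference was -5.85 and passed.

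The call depended on which cells and libraries entered. Leaving out the 19 macrophages with markers of other cells, the difference was -3.71 and no gene passed (30 genes higher and 22 lower had an unadjusted p under 0.05). This left 1563 genes to test in place of 2108. The limit of 5 marker UMIs was not scaled to the depth of a cell, and the part of lost depth in this change was not tested. With SD replicate 3 added and the set as a term the difference was -3.20 and none passed (47 and 12). Within set 1 it was -2.95; within set 2, SD replicate 3 had no UMI and HFD replicate 2 had 1. Other cells of the HFD libraries held 306 and 128 Il1b UMIs in 4 and 3 cells, while the 51, 57 and 32 other cells of the SD libraries held 0. S100a8 and S100a9, which mark neutrophils, were at 0 in all 15 macrophages with Il1b.

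By the naming rule, the genes of lowest p on the higher side were Fgfr2, Vav3, Gpr65, Lgals3, Lpp, Cd83, Lpl and Cd86, none of which passed (adjusted p 0.327 each, edgeR quasi-likelihood). Gpr65, a proton-sensing receptor, was at 43.2 and 38.8 CPM on SD and 225 and 195 CPM on HFD (2.31 ± 0.55). Lgals3, the lectin galectin-3, was at 190.3 and 77.5 CPM on SD and 429 and 658 CPM on HFD (1.87 ± 0.45). Of the Lgals3 UMIs, 39 (20.6%) were in 1 cell of HFD replicate 2, and 26 and 18 in single cells of HFD replicate 1. Lpl, lipoprotein lipase, was at 147 and 96.9 CPM on SD and 340.4 and 577 CPM on HFD (1.82 ± 0.45), with 44 and 37 of its UMIs in 1 cell of each HFD library. In these 3 the HFD values lay above the SD values without overlap. Cd83, which steadies class II at the surface, was at 1297 and 1047 CPM on SD and 2242 and 2666 CPM on HFD (1.05 ± 0.25). Cd86, the costimulator, was at 337 and 155 CPM on SD and 707 and 878 CPM on HFD (1.59 ± 0.39). The HFD values of both again lay above the SD values. Without the 19 macrophages with markers of other cells, the differences of Cd83, Cd86 and Lgals3 were 0.61, 1.01 and 3.07. Lpp, a focal adhesion protein, was at 112 and 77.5 CPM on SD and 319 and 382 CPM on HFD (1.80 ± 0.43). Fgfr2, the growth factor receptor, was at 60.5 and 38.8 CPM on SD and 278 and 252 CPM on HFD (2.30 ± 0.52), with 37 and 28 of its 93 UMIs in 1 cell of each HFD library. Vav3, a guanine nucleotide exchange factor, was at 173 and 174 CPM on SD and 487 and 553 CPM on HFD (1.57 ± 0.37). Within set 1 all 8 differences were positive. Within set 2, where the median of all genes was 1.14, they ran from 0.41 for Gpr65 to 5.07 for Lgals3.

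On the lower side the genes after Il1b were Colec12, Rnaseh2c, Ppp1r14b, Rps24, Rhog, C1qa and Necap2, with adjusted p from 0.327 to 0.758 (edgeR quasi-likelihood). Colec12, a scavenger receptor with a collagen domain, was at 138 and 271 CPM on SD and 21 and 32.5 CPM on HFD (-2.86 ± 0.67), a difference of -2.34 within set 1 and 1.38 within set 2. C1qa was at 6175 and 5369.6 CPM on SD and 4017 and 3804 CPM on HFD (-0.56 ± 0.20; -0.46 and -0.75 within the sets). With macrophages thinned to 1000 UMIs its difference was -0.12. Rhog, a small GTPase of phagocytosis, was at 208 and 213 CPM on SD and 47.1 and 106 CPM on HFD (-1.51 ± 0.53). Trem2, 1 of the 7 markers, was at 579 and 388 CPM on SD and 236 and 317 CPM on HFD (-0.85 ± 0.37, adjusted p = 0.79), again below in both HFD libraries.

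**Figure D5:**
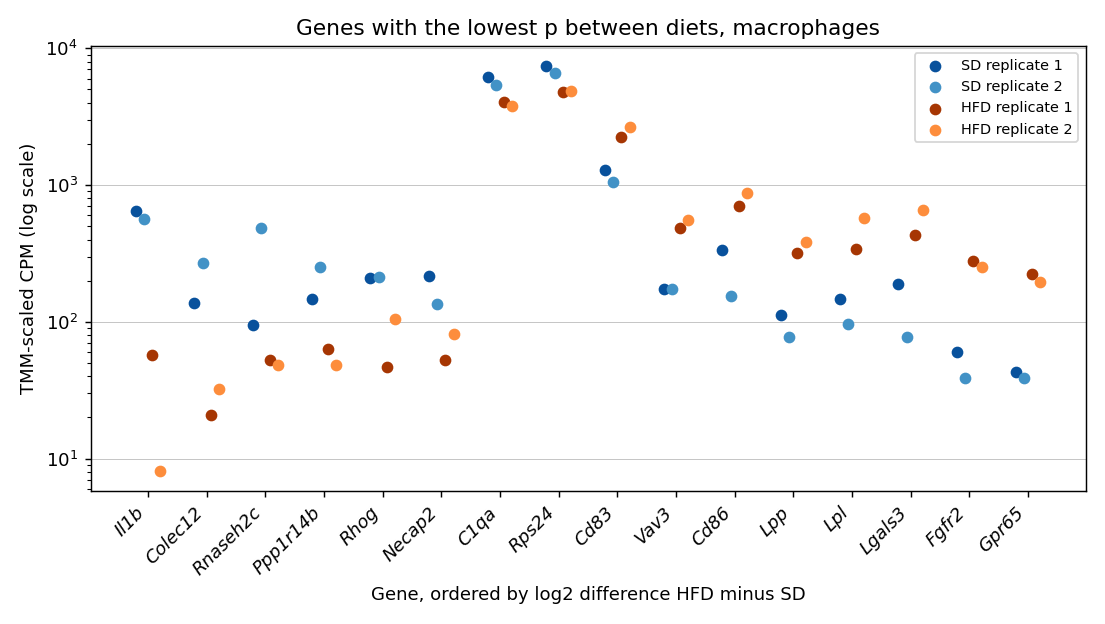
Macrophage levels of the 16 genes with the lowest p per direction between diets, as TMM-scaled CPM on a log axis, ordered by the log2 difference; each point is 1 of 4 libraries. For each gene the 2 SD points and the 2 HFD points do not overlap, and Il1b, at the left, is the gene that passed. The genes were picked by p in these same libraries, where 38% of all 2108 genes tested do not overlap.

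No member of a list passed other than Il1b, and counts of members without overlap stand beside 19.8% higher and 18.2% lower for all genes. Of the 9 class II genes tested, 7 had positive and 2 negative differences (median 0.15), 2 were higher without overlap and 0 lower. Cd74 was at 20531 and 13511 CPM on SD and 16970 and 18711 CPM on HFD (0.07 ± 0.20). Of 18 perivascular genes, 4 were higher and 1 lower without overlap (median 0.21). Mrc1 was at 1557 and 1589.5 CPM on SD and 2477 and 1780.1 CPM on HFD (0.44 ± 0.26). Of 25 receptors, 8 were higher and 4 lower (median 0.16), and of 16 cytokines and chemokines, 5 were higher and 2 lower (median 0.51). Ccl12 was at 381 and 0 CPM on SD and 2608 and 1097 CPM on HFD (3.04 ± 1.12), with 4.91 within set 1 and -2.08 within set 2. Of 20 identity genes, 2 were higher and 7 lower (median -0.26). The 7 were C1qa, C1qb, Lyz2, Trem2, Tyrobp, Aif1 and Fcgr1, and the 2 were Csf1r and Laptm5. Of 18 immediate early genes, 5 were higher and 2 lower (median 0.24). Of 12 lipid-associated genes, 5 were higher and 1 lower (median -0.01), and of 11 microglia-type genes 1 was higher and 6 lower (median -0.25). The counts were 2 and 2 of 8 complement genes, 3 and 3 of 17 phagocytic receptors, 4 and 1 of 15 growth factors or proteases, and 3 and 2 of 18 genes of lysosome and iron handling. Of 4 interferon-stimulated genes tested, 1 was higher and 3 lower (median -0.50). Of the Schwann list, 2 of 13 genes could be tested, Pmp22 (0.49 ± 0.45) and Egr2 (1.34 ± 0.54; also an immediate early gene), and only Egr2 was higher without overlap. The part of other cells' RNA in the values of the macrophage lists was not tested. The median over all 2108 genes was 0.006.

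Ribosomal protein genes all had the same sign. All 81 tested had negative differences (median -0.33), 50 of them lower without overlap and 0 higher, and none passed. With SD replicate 3 included the median was -0.10, and within set 2 it was 0.37, beside 1.14 for all genes there. With the deep cells alone it was -0.28. The share of shallow cells differed between libraries, as given above, and its part in this difference was not tested.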

How the data were processed

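Cells were released from sciatic nerve, selected with beads against O4 and made into 10x Genomics single cell 3′ libraries, per the labels' protocols. The authors' deposited table holds whole-number UMI counts for 32285 gene rows and 364 cells, and their deposited annotation gives each cell's library and type. Cell Ranger 3.1.0 and mm10 are named in the submitters' processing notes; the sources used here state neither the filters on cells nor how the types were drawn. The mitochondrial percent per cell is the authors' deposited value. Libraries with Ctrl in the annotation were taken as SD, and the project numbers in the library names, whose meaning is not stated, divide them into 2 sets.

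Macrophage counts were summed per library and divided by their total (CPM). Diet was tested with edgeR 4.0.16 (quasi-likelihood, TMM, filterByExpr, Benjamini-Hochberg threshold 0.05) in R 4.3.3, for libraries with at least 10 macrophages; DESeq2 1.42.0, other scalings, filters, cell selections, project sets and left-out libraries were alternatives. The script was tested on simulated data. Other values came from Python 3.11.15 with numpy 2.4.6, pandas 2.3.3 and scipy 1.17.1, and figures from matplotlib 3.10.9. No doublet caller was run, and the sources used here do not say whether doublets were removed. Macrophage totals ranged from 8291 to 223683 UMIs per library, so 3 counts correspond to 362 down to 13.4 CPM.

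Named genes were the 7 markers, up to 8 members of each list by level, members at 0 that define a cell type, up to 2 per direction of each list by p for diet, the 8 lowest p per direction, the 12 most variable genes, 6 loadings per end of 2 components, and Il1b; other single genes and cells were chosen after their values were seen. The members and the gene lists were chosen with earlier results of these data known. Some genes are not reported here.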

Additional observations from a re-analysis of the deposited data

How the results depend on the processing

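The count of macrophage genes differing between diets was 1 with RLE scaling, with the project set as a term, with libraries of at least 3 macrophages, with macrophages of at least 500 UMIs, with deep macrophages, with barcode families counted once and with DESeq2; after thinning to 1000 UMIs it was again 1, but of 267 genes tested and Malat1 in place of Il1b. It was 4 with no filter on low counts (12105 genes tested), 0 without the cells with other markers, and 0 with the project set as a term over 5 libraries; the cause of the last 3 was not tested. Leaving out 1 library gave 2 to 26 genes, namely 26 without SD replicate 1, 2 without SD replicate 2, 17 without HFD replicate 1 and 4 without HFD replicate 2, Il1b among them each time; the lone library was then assumed to vary like the other diet's. The log2 difference of Il1b ranged from -6.02 to -3.20. Of 241 values for the 16 named genes under these alternatives, 0 turned sign, 11 newly passed and 2, both of Il1b, no longer passed; within set 2, outside that count, Il1b (0.49), Colec12 (1.38) and Necap2 (2.33) were positive.

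With the replicate number as a block, 5 genes passed. Same-numbered libraries did not deviate together (r = -0.05 over 2108 genes, 2 pairs), so the number is not taken as a pairing. The block gave 21.96 points for the macrophage share and 1804 for the median UMIs, from replicates 1 and 2.

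The difference in share stayed positive, from 10.996 to 41.5 points with 1 library left out. That in median UMIs was -174.5 with cells of at least 500 UMIs, and ranged from -614 (without HFD replicate 1) to 5508 (without HFD replicate 2) with 1 library left out. At 500 in place of 1000 UMIs per cell the shares for C1qa, C1qb, Lyz2, Trem2 and Cd14 were 72.5%, 70.5%, 87.1%, 12.04% and 22.3%. Depth limits what is seen in shallow cells and in SD replicate 3, where 3 counts are 362 CPM. The deep boundary, the barcode families and the fit over 5 libraries were chosen after seeing the data.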
